A study of Mus musculus with 4 samples.

Results

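The 9 genes described here make and control the mouse major histocompatibility complex (MHC) class II antigen presentation pathway. They are H2-Aa, H2-Ab1, H2-Eb1, H2-DMa, H2-DMb1, H2-DMb2, H2-Oa, Cd74 and Ciita, and they were taken by symbol from the 31053 genes of the count files, where all 9 were found. Their messenger RNA was measured by single-cell RNA sequencing in aortic arches with branches, perivascular tissue included, in which macrophages of several kinds, monocytes, dendritic cells and B cells can present antigen. The groups were male mice of 3 months at the start, labelled Nrf2Cdh5Lox (Nrf2flox/flox controls) or Nrf2Cdh5tKO. The paper derives both genotypes, controls included, from a cross between C57BL/6-Nfe2l2tm1.1Sred/SbisJ and B6;129-Tg(Cdh5-cre)1Spe/J animals. All mice of the groups, controls included, carry the loxP-flanked Nrf2 (Nfe2l2) gene. Normocholesterolemic mice had saline and a standard diet, and atherosclerotic mice were kept for 21 weeks on high-fat feed. The aortas of 4 normocholesterolemic or 3 atherosclerotic mice were pooled into 1 library per group, named below normo-flox, normo-tKO, athero-flox and athero-tKO. Values for the libraries are given in this order throughout.

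The Cre recombinase of the tKO mice is driven by the Cdh5 promoter, which is active in endothelium and in a share of blood cells, and it removes exon 5 of Nfe2l2. Levels are given as CPM, the unique molecular identifiers (UMIs) of a gene per 1000000 UMIs of the same cells. In gated endothelial cells Nfe2l2 stood at 180, 393, 168 and 379 CPM, higher in both libraries labelled tKO. Where the 3′ tags of Nfe2l2 fall relative to exon 5 was not examined, so these levels do not check the genotype. The name tKO is used below as the label of a library.

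Class II molecules are pairs of an alpha and a beta chain that carry peptides from endosomes to the cell surface, where CD4 T cells read them. H2-Aa and H2-Ab1 encode the chains of I-A, and H2-Eb1 encodes the beta chain of I-E, whose alpha chain is not made in C57BL/6 mice. Cd74, the invariant chain, holds the peptide groove closed until the endosome. The DM pair, H2-DMa with H2-DMb1 or H2-DMb2, catalyses the loading of peptide, and DO, whose alpha chain is H2-Oa and whose beta chain is H2-Ob, restrains DM. Ciita is the coactivator on which transcription of these genes depends. It acts through the factors bound to the S, X and Y boxes of their promoters. In arteries, macrophages and dendritic cells are the main carriers of class II molecules.

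Of the members, 7 lie together on chromosome 17 of mm10 within the MHC. In the GENCODE M21 annotation of this build, H2-Oa runs from 34092340 to 34095234, H2-DMa from 34119541 to 34139101, H2-DMb2 from 34143307 to 34151555, H2-DMb1 from 34153072 to 34160230, H2-Ab1 from 34257689 to 34269419 and H2-Eb1 from 34305867 to 34316674, all on the plus strand. H2-Aa lies on the minus strand, from 34282744 to 34287823. Ciita lies apart from them, on chromosome 16 from 10480059 to 10528418 on the plus strand. All of these are protein-coding genes.

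Promoter windows from RefSeq, 250 bases before to 50 after a gene's start on GRCm38.p6 (the same build as mm10), were given for 6 of the 9 members. Stretches of 4 are shown in which the letters TGATTGG, the inverted CCAAT box to which NF-Y binds, stand close before the start. The window of H2-DMb1 held these letters as well, but no stretch of it is shown. No relation of these letters to the measured levels was tested. In the stretches below, capitals mark TGATTGG and, where present upstream of it, GATGATGC, letters of the X box region. The stretches of H2-Aa, H2-Eb1 and H2-Oa end before or at the start of the GENCODE gene. That of H2-DMb2 lies inside the GENCODE span of its gene, which begins at 34143307, before the RefSeq start used here.
H2-Aa, chr17:34287824-34287953, minus strand: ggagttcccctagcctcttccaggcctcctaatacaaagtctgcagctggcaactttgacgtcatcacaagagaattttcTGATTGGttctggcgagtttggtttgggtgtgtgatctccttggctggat
H2-Eb1, chr17:34305737-34305866, plus strand: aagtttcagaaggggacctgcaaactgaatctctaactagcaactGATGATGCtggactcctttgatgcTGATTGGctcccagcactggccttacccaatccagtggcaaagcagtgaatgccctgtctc
H2-DMb2, chr17:34145119-34145235, plus strand: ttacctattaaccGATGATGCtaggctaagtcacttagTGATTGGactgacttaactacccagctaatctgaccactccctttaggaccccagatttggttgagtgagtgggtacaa
H2-Oa, chr17:34092249-34092340, plus strand: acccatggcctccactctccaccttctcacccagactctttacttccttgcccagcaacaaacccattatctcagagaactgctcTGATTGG
TGATTGG began 50, 61, 92 and 45 bases before the RefSeq start of H2-Aa, H2-Eb1, H2-DMb2 and H2-Oa. GATGATGC began 85 and 117 bases before the start of H2-Eb1 and H2-DMb2, with 16 and 17 bases between the motifs. In the window of H2-DMb1 the same pair began 88 and 63 bases before the start with 17 bases between. The windows of H2-DMa held neither motif. They lie inside the GENCODE span of that gene, which begins at 34119541, so the bases before its GENCODE start were not searched.
Both motifs were chosen after the sequences were seen, and both strands were searched. TGATTGG was found in 7.82% and GATGATGC in 0.703% of all 32851 windows. GATGATGC followed by TGATTGG after 8 to 28 bases was found in 6 windows (0.0183%). Those windows belong to H2-DMb1, H2-DMb2, H2-Eb1, Tmsb15b1, Tmsb15b2 and Tmsb15l.

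To compare cell types, 14148 cells that passed the study's limits were sorted by markers, none of them a class II gene. The gates held 668 Lyve1+ macrophages (338, 178, 38 and 114 in the 4 libraries), 150 cavity-like macrophages (117, 10, 4 and 19), 85 intima-type macrophages (46, 10, 6 and 23), 132 monocytes (60, 20, 28 and 24), 105 dendritic cells (51, 16, 20 and 18) and 199 B cells (109, 35, 30 and 25). They also held 922 T and NK cells, 7368 fibroblasts, 1582 smooth muscle cells and 150 endothelial cells, and 2787 cells stayed outside all gates. The libraries held 12276546 to 98754487 UMIs, and any 2 of them shared 2 to 10 cell barcodes. By the median over libraries, each of the first 6 gates had more of its own marker list than the other 5 of them had. The gates select on these same lists, so the marker sums describe the gated cells and are no check on the gates. In dendritic cells the phagocyte and leukocyte lists, with medians of 4525 and 4191 CPM, summed higher than the dendritic cell lists themselves, with 1189 for type 1 and 1967 for the others. The summed level of the 9 Lyve1+ markers was 7509 to 9164 CPM in Lyve1+ macrophages and 39.4 to 287 in dendritic cells. The 8 B cell markers summed to 8332 to 10856 in B cells and 93.9 to 111 in dendritic cells. UMIs were counted from 3′ tags, 1 per molecule whatever its length, so transcript length does not enter the levels. Whether genes differ in how well their molecules are captured or assigned was not tested.

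Dendritic cells and intima-type macrophages carried the highest level of class II transcripts. The 9 genes together gave 70868, 60164, 62147 and 66104 CPM in dendritic cells. In intima-type macrophages they gave 66040, 66710, 44582 and 66702, where the third value rests on 6 cells. These ranges overlapped, so the order of the first 2 cell types is not settled by the spread between libraries.
Cavity-like macrophages gave 51978, 46629, 57526 and 41498 CPM, the third value from 4 cells. These lay below every dendritic cell library, but overlapped with intima-type macrophages through the athero-flox library of the latter. B cells gave 25449, 29543, 24264 and 25276 and Lyve1+ macrophages 28851, 18580, 17547 and 20369, and these overlapped. Monocytes came next with 12376, 10272, 6232 and 11333, below every library of Lyve1+ macrophages.
In the stroma and in T and NK cells the sum was lower by over an order of magnitude: 161 to 308 CPM in T and NK cells, 95.5 to 203 in fibroblasts, 114 to 183 in smooth muscle cells and 182 to 720 in endothelial cells. Smooth muscle cells, which are not known to carry class II molecules at rest, serve here as the reference for a low level that free RNA can also give. After each cell was thinned to 1000 UMIs, 10.3% to 17.2% of smooth muscle cells had a class II UMI, against 100% of dendritic cells in each library, 73.6% to 85.5% of Lyve1+ macrophages and 58.3% to 70.0% of monocytes. Without thinning the shares were 71.2% to 93.5% in smooth muscle cells and 96.6% to 100% in Lyve1+ macrophages, at median depths of 12669 to 17269 and 7040.5 to 10062.5 UMIs per cell. Fibroblasts (10.9% to 18.4% after thinning) stood at about the smooth muscle level, and neither share is read here as expression. The makeup of these few UMIs was not that of all cells: over the summed libraries H2-DMb1 made 11% of the UMIs of H2-DMb1 and Cd74 in smooth muscle cells and 7.86% in fibroblasts, against 2.87% over all kept cells. The source of these UMIs was not tested.

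**Figure D1:**
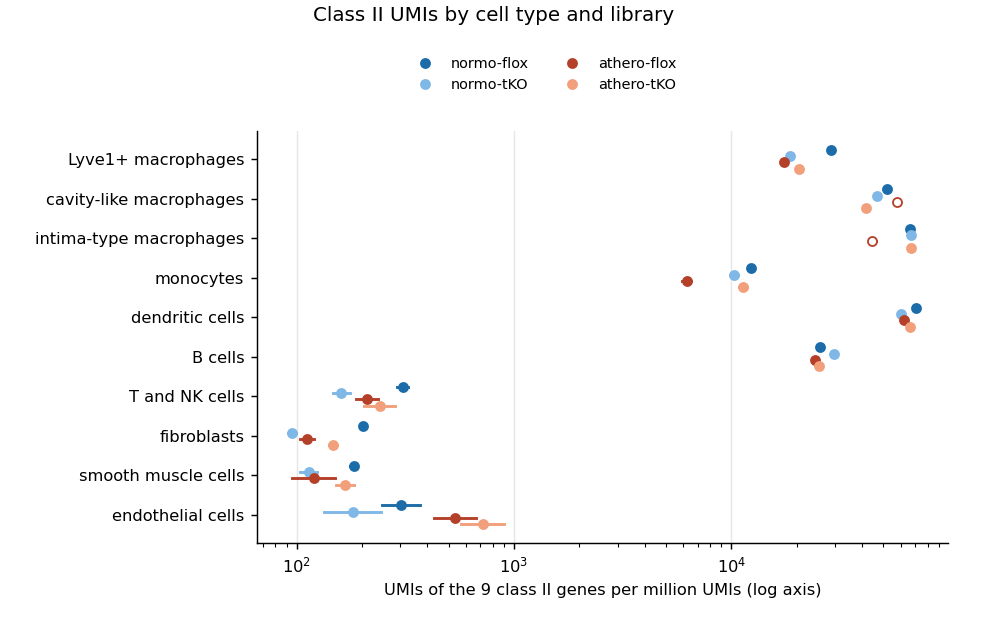
Level of the 9 class II genes together in CPM (log axis) in each gated cell type, 1 point per library with its exact 95% Poisson interval (counting error only) and open points for fewer than 10 cells. Dendritic cells and intima-type macrophages lie at the right, between 44582 and 70868, and fibroblasts and smooth muscle cells at the left, between 95.5 and 203.

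Because each cell type was measured in 4 libraries, the cell types could be compared over libraries. UMIs were summed per cell type and library into 39 sums, and edgeR's quasi-likelihood test was run on 10081 genes with the library as a block and Benjamini-Hochberg adjustment. The 4 sums of a cell type come from different pools of mice, but differ in genotype label and diet, and they vary around their mean accordingly. Sums of a few cells weigh as libraries of their own, and 1 sum of 4 cavity-like cells was left out.

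All 9 members were higher in dendritic cells than in Lyve1+ macrophages. Among all genes 18.8% were called higher and 17.8% lower. The median log2 fold over 8 members, H2-Oa left out because it rests on 2 UMIs in Lyve1+ macrophages, was 2.09 and the range 1.82 to 6.65, against a median of -0.09 over all genes tested. The chains of I-A and the invariant chain were shifted by similar amounts. H2-Ab1 stood at 12938, 10453, 10253 and 10425 CPM in dendritic cells and at 4487, 2540, 2293 and 2447 in Lyve1+ macrophages, with no overlap. The log2 fold was 2.25 ± 0.19 (SE; edgeR adjusted p = 3.56e-13). H2-Aa (1.86 ± 0.21), H2-Eb1 (2.02 ± 0.20) and Cd74 (1.82 ± 0.21) were close to it.
The coactivator Ciita was far rarer than Cd74 and the chains of I-A and I-E, and in dendritic cells its level was near those of H2-Oa and H2-DMb2. It was found at 76.3, 101, 176 and 165 CPM in dendritic cells and at 34.7, 33.5, 23.9 and 24.7 in Lyve1+ macrophages, and the ranges did not overlap. Its log2 fold, 2.17 ± 0.23 (SE; edgeR adjusted p = 1.93e-10), lay within the range of the genes it controls.

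H2-DMb2 and H2-Oa differed more between dendritic cells and Lyve1+ macrophages than the other members, while H2-DMa (1.90 ± 0.20) was within the range of the chains. H2-DMb1, the DM beta chain gene of most phagocytes, stood at 871, 1079, 1060 and 1290 CPM in dendritic cells and at 282, 253, 198 and 270 in Lyve1+ macrophages. H2-DMb2, its neighbour on the chromosome, stood at 109, 62.0, 161 and 79.0 in dendritic cells but was almost absent from Lyve1+ macrophages, where it had 5, 1, 1 and 1 UMIs. Over the summed libraries it was 85.5-fold higher in dendritic cells (exact 95% interval of the ratio 42.5 to 201, counting error only). H2-Oa gave 114, 155, 145 and 68.3 CPM in dendritic cells and 0, 1, 0 and 1 UMIs in Lyve1+ macrophages. At 212 against 2 UMIs its ratio was 396 (108 to 3293), an interval so wide that only its order can be read. H2-Ob, the DO beta chain, was also higher in dendritic cells, at 86.2 to 127 against 0 to 4.35 CPM.

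Cavity-like macrophages had 8 of the 9 members higher than Lyve1+ macrophages, against 16.6% of all genes called higher and 15.6% lower. Over 8 members the median log2 fold was 1.51, against -0.09 over all genes. The exception was H2-Oa, with 1 UMI in all 150 cells. H2-DMb2 set these cells apart from the other macrophages. It stood at 162, 163, 180 and 124 CPM, overlapping with dendritic cells and above every library of Lyve1+ and intima-type macrophages. It was found in 57.9% to 75.0% of cavity-like cells and in 0.562% to 2.63% of Lyve1+ macrophages. Over the summed libraries it was 129-fold higher than in Lyve1+ macrophages (64.7 to 300). Cavity-like macrophages thus had the DM beta chain gene H2-DMb2 without the DO chain gene H2-Oa, which dendritic cells and B cells had together with it.
The other members were higher by less: Cd74 by 1.18 ± 0.22, H2-Aa by 1.02 ± 0.22, H2-Eb1 by 1.21 ± 0.21, H2-Ab1 by 1.61 ± 0.20, Ciita by 1.41 ± 0.25, H2-DMa by 2.01 ± 0.21 and H2-DMb1 by 2.10 ± 0.22 (log2 fold ± SE). Relative to the other members the genes of DM were more abundant: H2-DMa, H2-DMb1 and H2-DMb2 together made 4.48% to 5.32% of class II UMIs in cavity-like macrophages and 2.22% to 2.96% in Lyve1+ macrophages, with no overlap between libraries.

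Intima-type macrophages had all 9 members higher than Lyve1+ macrophages, against 7.59% of all genes called higher and 8.20% lower. The median over 8 members without H2-Oa was a log2 fold of 1.65, against -0.11 over all genes. Cd74 stood at 34737, 34770, 22542 and 36001 CPM and was higher by 1.61 ± 0.20 (SE; edgeR adjusted p = 7.84e-08). H2-DMa was the member with the smallest fold, 1.04 ± 0.21. H2-DMb2 and H2-Oa were called on few molecules, 28 and 11 UMIs in all, and the 19 H2-DMb2 UMIs of normo-flox came from 6.52% of its 46 cells. With a stricter marker gate, which left 48 of the 85 cells, the calls on H2-DMb2 (log2 fold 0.79) and H2-Oa (4.24) were lost and the other 7 stayed.
Set against each other, dendritic cells had 5 members higher than intima-type macrophages, H2-Oa, H2-DMb2, H2-DMa, H2-DMb1 and H2-Ab1, and none lower. Among all genes 10.0% were called higher and 7.48% lower. The members that kept this call without each library in turn were H2-Oa (3.64 ± 0.39) and H2-DMb2 (2.18 ± 0.36). The call on H2-Ab1 (0.52 ± 0.18) was lost without any 1 of the libraries, that on H2-DMb1 (0.67 ± 0.21) without normo-flox, normo-tKO or athero-flox, and that on H2-DMa (0.85 ± 0.20) without athero-flox. In these runs 2 to 4 members were called. The median over 8 members was a log2 fold of 0.60, against 0.06 over all genes. Cd74 (0.20 ± 0.20), H2-Eb1 (0.33 ± 0.20), H2-Aa (0.49 ± 0.20) and Ciita (0.71 ± 0.26) did not pass the test. Athero-flox rests on 6 intima-type cells, whose class II sum was the lowest of the 4.

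Monocytes had the peptide-binding chains and Cd74 lower than Lyve1+ macrophages. H2-Aa, H2-Ab1, H2-Eb1 and Cd74 were called lower, 4 of 9, against 15.1% of all genes called lower and 15.3% higher. Over 8 members the median log2 fold was -0.63, against -0.10 over all genes. With H2-Oa it was -0.34 over 9, and this value moved to -0.97 without normo-flox, -0.68 without normo-tKO, -0.59 without athero-flox and -1.10 with a stricter marker gate. H2-Eb1 stood at 1553, 1196, 466 and 1075 CPM, below all libraries of Lyve1+ macrophages (2068 to 4618), with a log2 fold of -1.36 ± 0.21 (SE; edgeR adjusted p = 8.42e-07). H2-Aa (-1.25 ± 0.21), H2-Ab1 (-1.05 ± 0.18) and Cd74 (-0.92 ± 0.20) were close to it. The helpers of loading were not called: H2-DMa stood at 282, 366, 202 and 185 CPM in monocytes and at 359, 296, 246 and 277 in Lyve1+ macrophages, with a log2 fold of -0.13 ± 0.21. The values for H2-DMb1 were -0.16 ± 0.22 and for Ciita -0.34 ± 0.34. With the stricter marker gate H2-DMb1 (-0.78) and Ciita (-1.10) passed the test as well. H2-Oa was called higher on 4 against 2 UMIs, and no fold is given for it; the call was lost in 7 of the alternative runs.

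B cells had a class II profile of their own. Against dendritic cells 7 members were lower, H2-DMb2 was higher and H2-Oa was not called, against 15.9% of all genes lower and 12.5% higher. Over 8 members the median log2 fold was -1.48, against 0.02 over all genes. The DM beta chain genes had the reverse order of abundance. H2-DMb1 stood at 83.9, 106, 82.9 and 96.7 CPM in B cells, below every other class II-bearing type, and its log2 fold against dendritic cells was -3.65 ± 0.25 (SE; edgeR adjusted p = 1.67e-15). H2-DMb2 stood at 343, 441, 424 and 544, above every library of every other type, at 1.95 ± 0.22 (SE; edgeR adjusted p = 5.42e-09). As a share of the UMIs of both genes, H2-DMb2 made 80.4%, 80.6%, 83.6% and 84.9% in B cells, 10.9% to 15.6% in cavity-like macrophages, 5.43% to 13.2% in dendritic cells, 0% to 6.52% in intima-type macrophages and 0.244% to 1.69% in Lyve1+ macrophages.
H2-Oa stood at 142, 172, 157 and 254 CPM in B cells, and its log2 fold against dendritic cells was 0.41 ± 0.23 (SE), past no threshold (edgeR adjusted p = 0.185). Relative to DM it was more abundant in B cells, where H2-Oa made 27.4% to 42.9% of the UMIs of H2-Oa and H2-DMa, against 7.92% to 15.0% in dendritic cells, with no overlap between libraries. H2-Ob followed, at 286 to 341 CPM in B cells and 86.2 to 127 in dendritic cells (log2 fold 1.31 ± 0.20 SE; edgeR adjusted p = 1.75e-06). H2-Eb2, an I-E beta-like gene, was found at 26.6 to 69.1 CPM in B cells and at 0 to 36.3 in dendritic cells.

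The 2 DM beta chain genes are alike, and reads could be shared between them. Their GENCODE transcripts were 76.3% identical over the whole alignment and 60.1% over the last 500 bases, where 3′ tags fall, and 15.4% of the 91-base windows of H2-DMb2 were found unchanged in H2-DMb1. In Lyve1+ macrophages H2-DMb2 made at most 1.69% of the pair at 282, 253, 198 and 270 CPM of H2-DMb1, which bounds the share of H2-DMb1 reads that can have been counted to H2-DMb2 there.

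**Figure D2:**
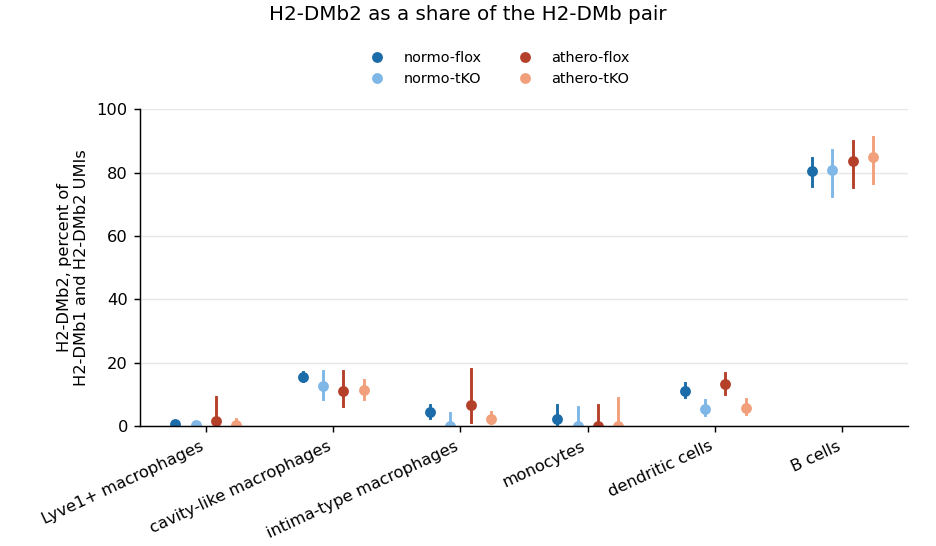
H2-DMb2 as a percentage of the UMIs of H2-DMb1 and H2-DMb2 together in 6 cell types, 1 point per library with its exact 95% binomial interval. B cells lie between 80.4% and 84.9% in all 4 libraries, and the other types lie at or below 15.6%.

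**Figure D3:**
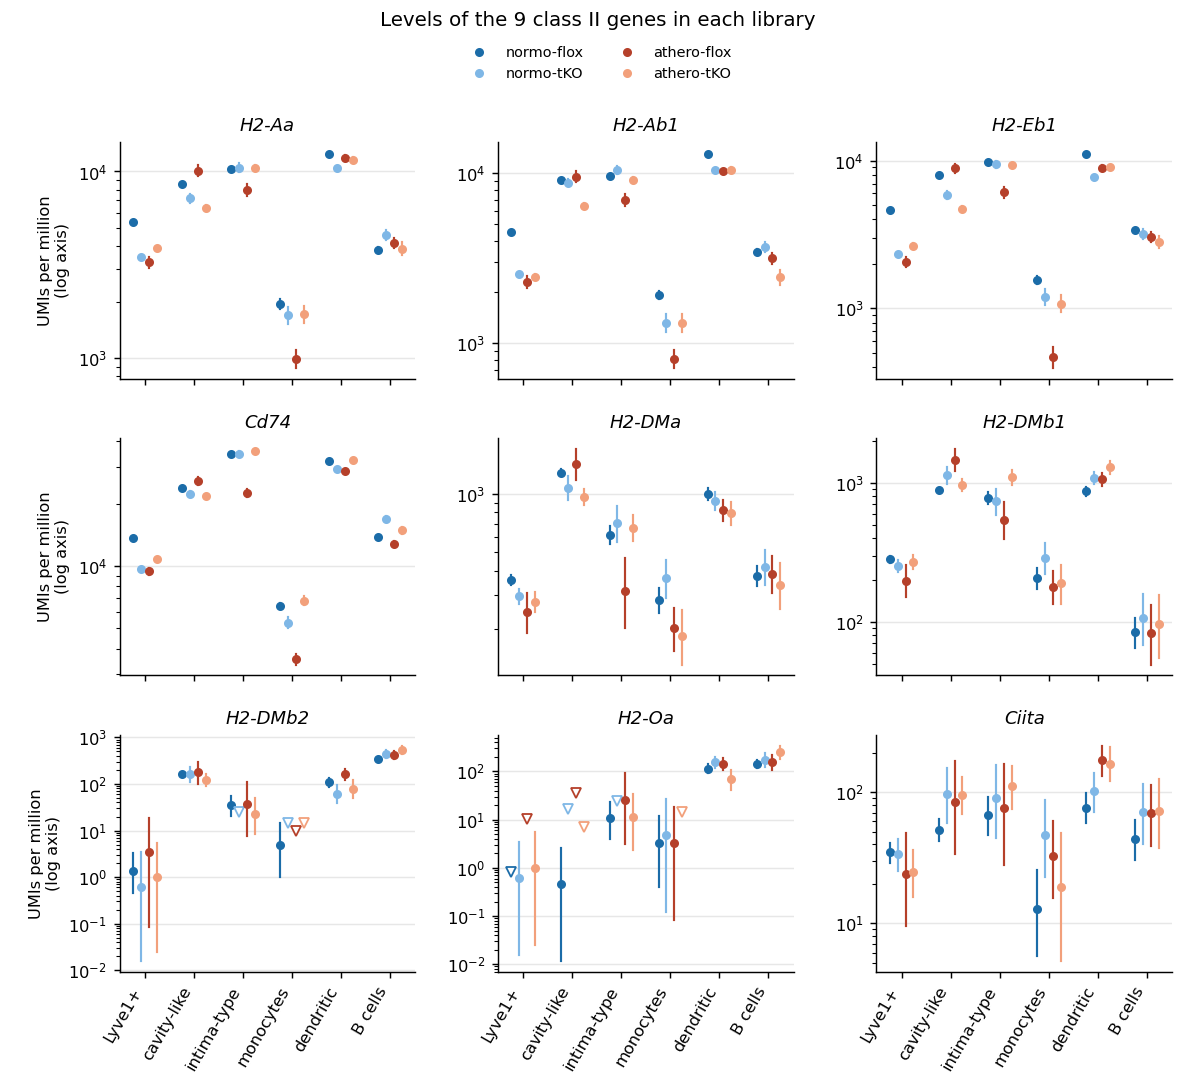
Level of each of the 9 class II genes in CPM (log axes that differ between panels) in 6 cell types, 1 point per library with its exact 95% Poisson interval, and open triangles at the level of 3 UMIs where a library had none. H2-DMb2 and H2-Oa, in contrast to Cd74, are near or at 0 in Lyve1+ macrophages and monocytes, and only H2-DMb2 of this pair is present in cavity-like macrophages.

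Other genes of the pathway, a list of 30 of which 24 were tested, did not move as one with the members. Against Lyve1+ macrophages, dendritic cells had 9 of the 24 higher and 5 lower, with a list median of 0.16 (log2 fold). Of all genes 18.8% were called higher and 17.8% lower. Those lower included Lgmn, the asparaginyl endopeptidase, at a log2 fold of -2.95 ± 0.29 (SE), and the cathepsin gene Ctsl at -2.06 ± 0.34, both proteases of antigen processing. March8, a ligase that removes membrane proteins from the surface, was lower as well, at -3.51 ± 0.47. Those higher included H2-Ob, the transcription factor genes Irf8 (2.35 ± 0.35), Batf3 (1.37 ± 0.30) and Irf4, and the costimulatory gene Cd80 (1.34 ± 0.33). Irf8 and Batf3 are known for their part in type 1 dendritic cells, and Irf8 was itself a gate marker of these cells, so its level is no finding. The costimulatory gene Cd86 went the other way (-0.61 ± 0.21).
Intima-type macrophages had 5 of 24 higher and 1 lower than Lyve1+ macrophages, against 7.59% and 8.20% of all genes. Ctss, the cathepsin that trims the invariant chain, was among the higher, at 2626 to 4652 against 966 to 1365 CPM (log2 fold 1.61 ± 0.20). Cavity-like macrophages had 5 higher, Batf3 first at 2.17 ± 0.28, and 8 lower, among them Irf8 (-3.11 ± 0.59), Lgmn (-3.04 ± 0.32) and Ctsl (-2.18 ± 0.38). Monocytes had 4 higher, among them Ctss, and 6 lower. B cells had 4 higher and 7 lower than dendritic cells, and dendritic cells had 6 higher and 6 lower than intima-type macrophages. Of all genes, 16.6% were called higher and 15.6% lower for cavity-like macrophages, and 15.3% and 15.1% for monocytes. For B cells these shares were 12.5% and 15.9%, and for dendritic cells against intima-type macrophages 10.0% and 7.48%. The factors that bind class II promoters are given singly, and their calls are not read as a trait of the group. Rfx5 and Rfxank were not among the genes tested. Rfxap and Nfyc were called in none of the 6 comparisons, Nfya was called lower in cavity-like macrophages (-0.99 ± 0.29), Nfyb higher in B cells (0.95 ± 0.36) and Creb1 higher in dendritic cells (0.56 ± 0.19) and cavity-like macrophages (0.64 ± 0.18). Ifng, the cytokine that induces Ciita, was found in T and NK cells at 13.4 to 47.9 CPM.
The 11 class I genes are given for comparison. None was called between intima-type and Lyve1+ macrophages, where 7.59% of all genes were called higher and 8.20% lower. With 11 genes this is near the share of all genes and is not read as a result. Dendritic cells had 7 of 11 higher than intima-type macrophages and none lower, against 10.0% and 7.48% of all genes. In monocytes B2m, Tap1, Psmb8 and Psmb9 were higher than in Lyve1+ macrophages, where the class II chains were lower. For monocytes 15.3% of all genes were called higher. Cavity-like macrophages had 1 higher (Psmb8) and 1 lower (Tap2), against 16.6% and 15.6% of all genes, and neither count is read as a result. Dendritic cells had 6 higher than Lyve1+ macrophages, against 18.8% of all genes. B cells had 5 lower than dendritic cells, against 15.9%.

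The genes most like the class II genes over the 39 sums were found by Pearson's r of log2(CPM + 1) with the mean of the same over H2-Aa, H2-Ab1, H2-Eb1 and Cd74, among 8547 genes with at least 10 CPM on average. They were Fgd2 (0.961), Cd83 (0.955), Cd86 (0.950), Unc93b1 (0.948), Ly86 (0.947), Ncf1 (0.942), Ctss (0.938) and Btk (0.936). The sums share libraries and cell types, and the values mostly show which genes separate antigen-presenting cells from stroma and T cells. Of the members outside that mean, r was 0.971 for H2-DMa, 0.968 for Ciita and 0.946 for H2-DMb1, but 0.710 for H2-DMb2 and 0.482 for H2-Oa, which took the ranks 324 and 909. With an offset of 10, Lat2 took the place of Btk.

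Lyve1+ macrophages were not uniform in class II. In single cells the 9 genes made a median of 1.75%, 0.691%, 1.32% and 0.892% of all UMIs in the 4 libraries, with a wide spread within each library. The 10th percentile lay between 0.0185% and 0.0465% and the 90th between 4.12% and 7.26%. Cells below 1% made 42.0%, 53.9%, 42.1% and 50.9%. By comparison 0% to 7.84% of dendritic cells, 0% to 5.50% of B cells and 62.5% to 80% of monocytes were below it.
At this cut of 1%, set after the values were seen, the cells above it numbered 196, 82, 22 and 56 and those below it 142, 96, 16 and 58. Cells between 0.5% and 2%, close to the cut, made 18.3%, 20.2%, 34.2% and 14.0%, so that the groups are ranges of a score and not types. Cells above the cut gave 47497, 38488, 27699 and 40555 class II CPM. Those below gave 2557, 1823, 2186 and 2142, against 114 to 183 in smooth muscle cells. The cut is itself on class II, so the gap between the sides follows from it and is no finding. The median UMIs per cell were 10014, 8172, 8087 and 8618 above the cut and 10145, 8680, 6313 and 9390 below it.

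**Figure D4:**
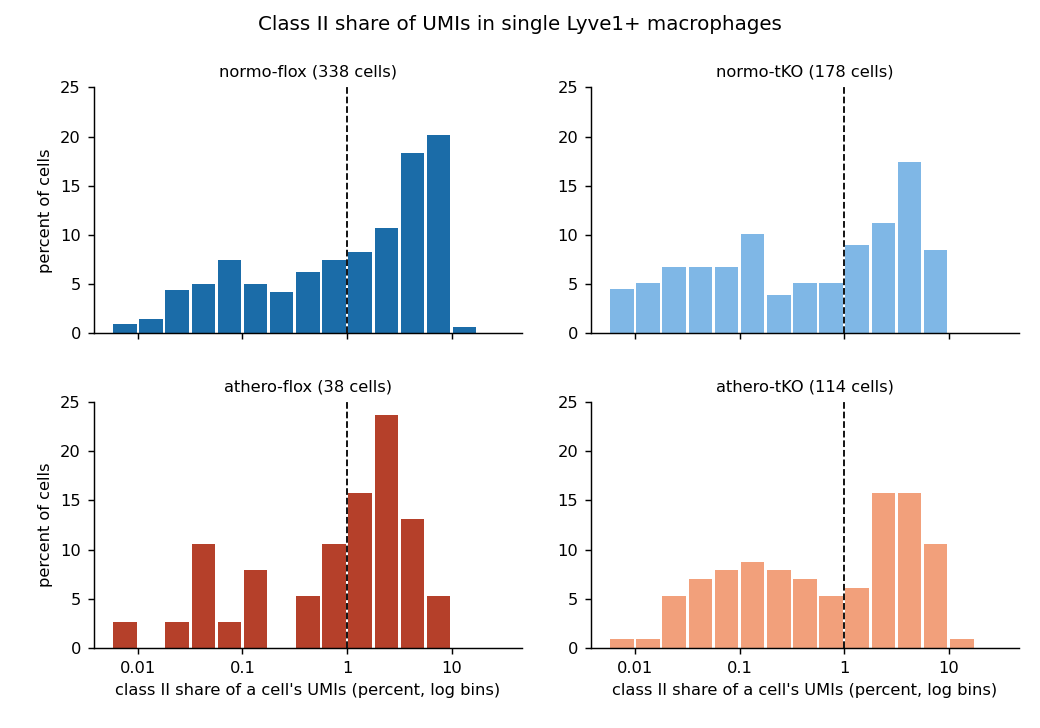
Share of Lyve1+ macrophages in each library (percent of cells, vertical axis) by the class II share of the cell's UMIs (percent, log bins, horizontal axis), with cells under 0.01% in the first bar and a dashed line at 1%. Each library has cells on both sides of the line, with 42.0% to 53.9% of them below it.

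Both groups carried Lyve1+ markers by the rule of the gate, which asks for at least 6 of the 9, so this is no finding. Lyve1 stood at 780, 635, 1055 and 879 CPM above the cut and at 1301, 1264, 1693 and 1085 below it, lower above the cut in each of the 4 libraries. Of the 9 Lyve1+ markers of the gate, Folr2, Cd163, Maf and F13a1 were also lower above it in all 4, while Cd209f and Hmox1 were higher in 2 libraries and Cbr2 and Gas6 in 1. In this and the next comparisons of both sides, CPM count UMIs outside the members. Of 6156 genes with at least 100 UMIs, 3 outside the members were more than 2-fold higher above the cut in every library and 0 were lower, with a count of 0 taken as 3 UMIs. Ccr2, the chemokine receptor by which monocytes leave the blood, had the largest median ratio. It stood at 51.9, 67.9, 163 and 108 CPM above the cut and at 9.99, 1.15, 8.59 and 5.65 below it, there on 15, 1, 1 and 3 UMIs. The others were Il1b, which rests on 4 against 1 UMIs in athero-flox, and Mpeg1, the macrophage perforin gene. Ccr2 is also a classical monocyte marker and Mpeg1 an intima-type marker of the gates. These genes were chosen on the cells they describe and no test was made.
Markers of other class II-bearing cells were in part near 0 and in part present. Over all 668 cells the dendritic cell markers Clec9a, Xcr1, Flt3 and Itgax had 0, 6, 2 and 2 UMIs, but Irf8 had 656, Naaa 374, Cd209a 204 and Kmo 94, and the other 7 had 4 to 29. Cd209a was higher above the cut in 3 libraries, most in athero-flox, at 111 against 8.59 CPM. Of the B cell markers Cd79a and Ms4a1 had 6 and 3 UMIs, but Ighm had 1185, Ebf1 76 and Cd79b 68. Of the 5 cavity-like markers Retnla was higher above the cut in all libraries, at 2516, 666, 1230 and 1109 against 1746, 363, 77.3 and 797 CPM. Lyz1 was as well, in athero-flox by 2 against 1 UMIs, Fn1 and Lpl were higher in 3 libraries, and Ear2 had 8 UMIs in all. The part of these cells in the split was not tested.

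The conditions were compared within cell types as ratios of 2 libraries. Each group is 1 pooled library, so no test between conditions can be made, and the exact 95% intervals cover counting error only. In Lyve1+ macrophages the class II sum was highest in normo-flox and within 17547 to 20369 CPM in the other 3. Normo-tKO stood below normo-flox by 0.63 on the log2 scale (interval of the log2 ratio -0.65 to -0.62), whereas athero-tKO stood 0.22 above athero-flox (0.17 to 0.26). Athero-flox stood below normo-flox (-0.72, -0.76 to -0.68) and athero-tKO above normo-tKO (0.13, 0.11 to 0.16). The directions by genotype label and by diet were thus opposite between the pairs, with normo-flox the library that stood apart.
H2-Eb1 moved most, from 4618 CPM in normo-flox to 2321, 2068 and 2647. Its log2 ratio was -1.16 (-1.28 to -1.04) for athero-flox over normo-flox, the only one of 7 members with 50 UMIs or more in both libraries together that passed 2-fold, against 7.71% of 6521 genes lower and 9.81% higher by as much. In normo-tKO over normo-flox it was -0.99, and 0 of 7 members passed 2-fold, against 4.17% of genes higher and 1.53% lower. For this pair the paper, with its own Lyve1+ cluster and a per-cell test, lists H2-Eb1 and H2-DMb1 as upregulated. In its proinflammatory macrophages it lists H2-Aa, H2-Ab1, H2-Eb1 and Cd74 as downregulated for the same pair. In the Lyve1+ gate here H2-Eb1 stood lower in normo-tKO, and the reason for the direction opposite to the paper's Lyve1+ cluster was not tested. H2-DMb1 was only slightly lower there, by far less than H2-Eb1, so no direction is read for it. For the tKO label in the atherosclerotic pair the shares of genes past 2-fold were 3.38% and 2.94%, and for diet in the tKO pair 0.680% and 2.15%, with no member past it.
H2-Aa, at 5366, 3479, 3255 and 3880 CPM, and Cd74, at 13703, 9655, 9461 and 10822, had the same order. For H2-Ab1, at 4487, 2540, 2293 and 2447, the intervals of athero-tKO over athero-flox (-0.03 to 0.22) and of athero-tKO over normo-tKO (-0.13 to 0.02) included 0. Of the genes of loading and control, H2-DMa stood at 359, 296, 246 and 277 and H2-DMb1 at 282, 253, 198 and 270, and for Ciita all 4 intervals included 0.
Part of these differences lay in how many cells were above 1% and part in how much those cells had. Above the cut normo-flox had 58% of its cells and 47497 class II CPM, and normo-tKO 46.1% and 38488. Athero-flox had 57.9% of its cells above it, but 27699.
Several marker sums moved with the normo-flox library in the same gate. The 5 cavity-like markers summed to 2311, 583, 856 and 1023 CPM in Lyve1+ macrophages and the 7 fibroblast markers to 892, 692, 467 and 417. The 6 summed dendritic cell markers of type 1 went the other way, lowest in normo-flox, at 139, 191, 212 and 211. The 9 others stood at 53.5, 37.3, 143 and 55.3, lower in normo-tKO and higher in athero-flox than in normo-flox. Fibroblasts had class II sums of 203, 95.5, 112 and 147 CPM and smooth muscle cells 183, 114, 121 and 167, so that normo-flox was highest there too. Taking the smooth muscle level of each library from its Lyve1+ level, 17547 to 28851 CPM, left all 4 directions as they were. Amounts this small could not change a direction, so no conclusion is drawn from this. With a stricter marker gate the ratio of athero-tKO to normo-tKO fell to -0.015 and lost its direction.

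**Figure D5:**
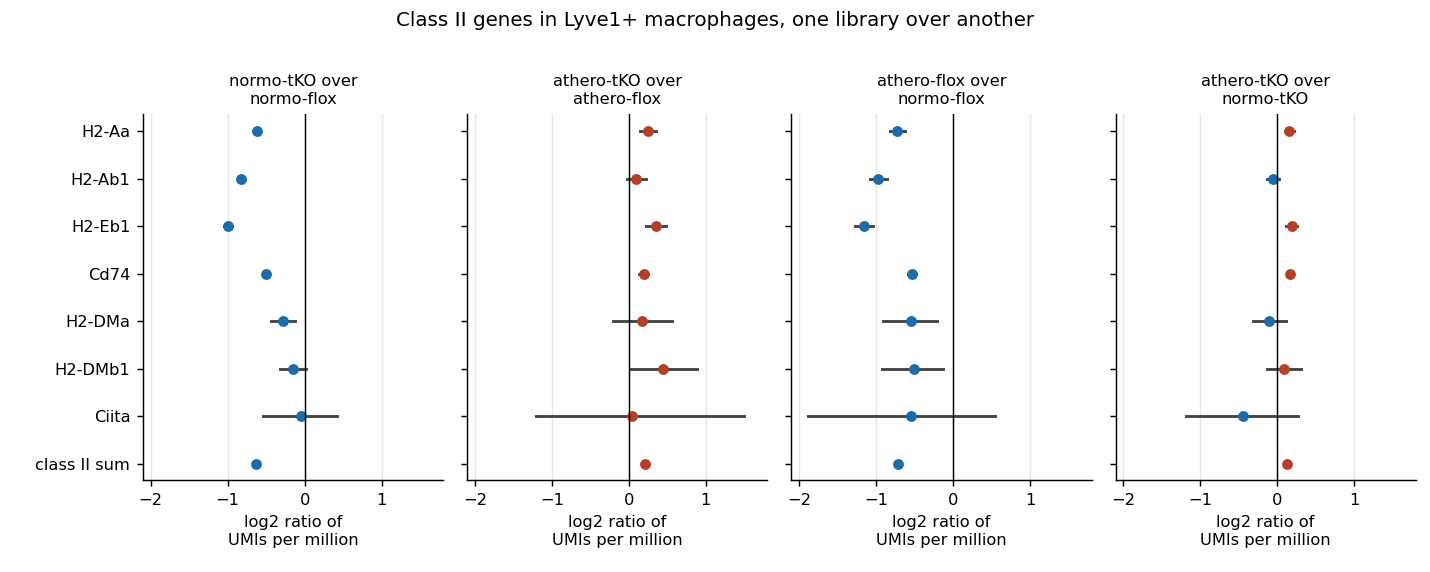
Log2 ratios of CPM between 2 libraries in Lyve1+ macrophages for 7 members and the class II sum, with exact 95% intervals that cover counting error only. Normo-tKO and athero-flox lie below normo-flox, down to -1.16 for H2-Eb1, and athero-tKO lies at or slightly above both libraries it is set against for most genes.

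In dendritic cells, 16 to 51 per library, the sums changed little, by -0.24 and 0.089 (log2) for the tKO label and -0.19 and 0.14 for the high-fat diet. Some members moved the same way in both pairs. Ciita was higher in both atherosclerotic libraries, at 176 against 76.3 CPM in flox (log2 ratio 1.2, 0.66 to 1.75) and 165 against 101 in tKO (0.70, 0.04 to 1.38). H2-DMb2 was lower in both tKO libraries, at 62.0 against 109 (-0.82, -1.57 to -0.13) and 79.0 against 161 (-1.02, -1.81 to -0.28). H2-DMb1 stood highest in athero-tKO and was 0.26 to 0.31 higher in all 4 pairs, but as a mean over cells it was lower in athero-tKO than in athero-flox (-0.034) and normo-tKO (-0.052). The makeup of the gate differed between the libraries. Type 1 cells made 19 of 51, 9 of 16, 4 of 20 and 4 of 18, and in them H2-DMb2 stood at 66.1, 45.1, 103 and 43.9 CPM against 141, 99, 178.5 and 90.5 in the other dendritic cells, lower in each library. Ciita stood at 96.1, 131, 256 and 234 CPM in type 1 cells and 61.7, 36.0, 151 and 143 in the others. These levels rest on few cells and UMIs, H2-DMb2 on 22, 11, 8 and 3 UMIs in type 1 cells and Ciita on 4 UMIs in the 7 other cells of normo-tKO, and the part of the makeup in the differences was not tested.
In monocytes the class II sum was lowest in athero-flox, and athero-flox over normo-flox was -0.99 (-1.06 to -0.92) with H2-Eb1 (-1.74) and H2-Ab1 (-1.24) past 2-fold, 2 of 6 members, against 3.29% of 2584 genes lower and 4.41% higher. Athero-tKO over athero-flox was 0.86 (0.78 to 0.95), with H2-Eb1 past 2-fold at 1.21, 1 of 6 members, against 2.83% of genes higher and 2.28% lower. For the tKO label in the normocholesterolemic pair no member passed 2-fold, against 3.69% of genes higher and 3.26% lower, and for diet in the tKO pair none, against 3.36% and 2.14%. H2-DMa was lower in both atherosclerotic libraries (-0.48 and -0.98). For diet in the flox pair the paper, with its own monocyte cluster and a per-cell test, lists H2-Aa, H2-Ab1 and H2-Eb1 as downregulated. The 14, 4, 6 and 9 monocytes above 1% gave 40766, 36776, 24001 and 32030 class II CPM and the others 1406, 2596, 1501 and 1056, so that the sums rest on few cells.
In B cells the tKO libraries had slightly more Cd74 in both diets (0.28 and 0.22), and H2-Eb1 was slightly lower in both atherosclerotic libraries (-0.15 and -0.19).
Endothelial cells had more class II UMIs in both atherosclerotic libraries, at 537 against 303 CPM in flox (log2 ratio 0.83, 0.39 to 1.26) and 720 against 182 in tKO (1.98, 1.44 to 2.54). These are 101, 46, 83 and 78 UMIs in 67, 39, 26 and 18 cells. Per cell the class II share of UMIs had medians of 0.026%, 0%, 0.028% and 0.020%. Only 1, 1, 1 and 2 cells had 10 or more class II UMIs, and the counting intervals do not cover the spread between cells. The 3 leukocyte markers, summed, stood at 27.0, 23.8, 12.9 and 18.5 CPM in them and the 11 phagocyte markers at 321, 413, 434 and 360, while the 8 classical monocyte markers stood at 36.0, 27.8, 233 and 120, higher in the atherosclerotic libraries. Their part in the difference was not tested.

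Summed over all cells, a large share of class II transcripts came from cells without an assigned type. Cells outside all gates that had the phagocyte markers held 26.7%, 26.4%, 30.7% and 32.6% of the class II UMIs of their library. Among the gated cells, class II transcripts came mostly from few cell types. Lyve1+ macrophages held 20.9%, 26.2%, 7.81% and 16.3% of the class II UMIs of their library, cavity-like macrophages 22.6%, 7.54%, 7.28% and 13.7%, intima-type macrophages 5.39% to 13.7% and dendritic cells 11.1%, 18.7%, 31.2% and 14.5%. Fibroblasts, which made 7368 of the 11361 gated cells, held 1.09% to 2.08%. The share of dendritic cells was highest in athero-flox, where they were 20 of 1020 kept cells.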

How the data were processed

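Cells from pooled aortic arches, kept by a DAPI-negative sort, were profiled by 10x 3′ single-cell RNA sequencing in 4 libraries, 1 per condition. The counts are the UMI counts per gene and cell that the authors deposited, unnormalized. The submitters' processing notes name Cell Ranger 6.1.2 and mm10. The paper's limits were applied to the cells: 200 to 6000 genes and at most 15% mitochondrial UMIs, which kept 7890, 2972, 1020 and 2266 cells with a median of 9201 to 14153 UMIs.

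Cells were gated by how many markers of each list had a UMI (for Lyve1+ macrophages at least 6 of 11 phagocyte and 6 of 9 Lyve1+ markers, under 4 of 5 cavity-like and under 5 of 9 intima-type markers). No class II gene was a marker. The gate thresholds were set after the marker distributions were seen, and the limit of under 3 of 5 neutrophil markers for monocytes was added after seeing the data. The members, lists and comparisons were chosen with earlier results of these data known. All 9 members are given. Of the 30 other pathway genes and 11 class I genes, counts and values for some are given; Ifi30 and H2-Ea-ps were not analysed. A further treatment of the atherosclerotic mice, which every comparison by diet also contains, and values of some listed genes are not reported here. Ratios of a member between conditions are given where both intervals of a diet or genotype pair leave out 0, and for the members in Lyve1+ macrophages. Ratios use libraries with at least 10 cells of the type, and counts past 2-fold use genes with at least 50 UMIs.

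UMIs were summed per type and library (at least 5 cells) and fitted with edgeR 4.0.16 in R 4.3.3: TMM scaling, filterByExpr, library and cell type as terms, the quasi-likelihood test, and Benjamini-Hochberg adjustment over 10081 genes at 0.05. The step was tested on simulated data. The study's own test took cells as replicates. The p-values here measure the spread of sums from 4 pools around the fitted terms for library and cell type. This spread was estimated over all gated cell types together, with the level of each library taken out by the block. Intervals for counts are exact Poisson and those for shares exact binomial (Clopper-Pearson) at 95%, and ratios use the exact binomial; all cover counting error only. Scrublet (in scanpy 1.11.5) marked 10 to 190 cells per library as doublets, which were kept, and removed in an alternative. Other alternatives were DESeq2 1.42.0, other scalings, no library block, no low-count filter, a stricter gate (1 more marker), a mitochondrial limit of 10%, each library left out, means over cells, other thinning depths and the smooth muscle level subtracted. Python 3.11.15 with scipy 1.17.1 was used.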

Additional observations from a re-analysis of the deposited data

Results flagged for a closer look

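In 5 cell types the class II sum had opposite directions for the tKO label in the 2 diets, with every counting interval apart from 0. With 1 library per group, the difference between the pairs was not tested. As log2 tKO over flox, normocholesterolemic first, the values were -0.63 and 0.22 in Lyve1+ macrophages, -0.27 and 0.86 in monocytes, -0.24 and 0.089 in dendritic cells, -1.09 and 0.39 in fibroblasts and -0.69 and 0.47 in smooth muscle cells. The fibroblast and smooth muscle levels (95.5 to 203 and 114 to 183 CPM) are those not read as expression in the report.

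In T and NK cells the class II sum was lower in athero-flox than in normo-flox (-0.54) and higher in athero-tKO than in normo-tKO (0.59), at 161 to 308 CPM, and this difference too was not tested.

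Cells outside all gates that had the phagocyte markers, 413, 228, 90 and 274 in number, held 26.7%, 26.4%, 30.7% and 32.6% of the class II UMIs of their libraries. The comparisons of cell types leave them out.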

How the results depend on the processing

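No paired analysis was possible because each condition is 1 library and the replicate numbers only name samples; the library block pairs cell types within a library, and without it the call between dendritic cells and intima-type macrophages covered 3 members in place of 5. Of the alternative values of the members' log2 folds, 665 kept their direction and side of the threshold, 29 lost the call, 4 gained it and 4 changed sign. For dendritic cells against intima-type macrophages 3 members were called with RLE size factors, without composition scaling and with DESeq2, 2 with the stricter gate, and 2 to 4 when a library was left out. All genes called fell from 1592 to 965 for intima-type macrophages with the stricter gate, and with a library left out ranged from 1764 to 3114 for cavity-like macrophages, 1882 to 2417 for B cells and 976 to 1482 for dendritic against intima-type macrophages, lowest without normo-flox each time. Sign changes with a library left out concerned values that passed no test: H2-Oa in cavity-like macrophages (-3.52 to 1.32), and in monocytes Ciita (-0.68 to 0.15) and H2-DMb2 (-4.32 to 1.30). Without composition scaling Cd74 in dendritic against intima-type macrophages was -0.047. Scaling moved the balance of all genes: dendritic cells against Lyve1+ macrophages had 1895 higher and 1798 lower, 1646 and 2163 with RLE, and 1330 and 2794 without composition scaling, where the median of all genes moved from -0.09 to -0.40. For cavity-like macrophages 1675 and 1576 became 1427 and 1853 with RLE and 1181 and 2226 without composition scaling, for dendritic against intima-type macrophages 1009 and 754 became 734 and 931, 605 and 1069, and, with DESeq2, 718 and 970, and for B cells 1259 and 1605 became 1542 and 1381 without it. In Lyve1+ macrophages the stricter gate moved the class II ratios to -0.50 and 0.32 (tKO label) and -0.83 and -0.015 (diet), with H2-Aa in the tKO pair at -0.0071, and a mean over cells gave 0.17 for the last pair. In monocytes it gave -0.16 for the sum by diet in the tKO pair and -0.12 for H2-Ab1 by label in the atherosclerotic pair. As means over cells, H2-Aa in dendritic cells by diet in flox was 0.047, H2-DMb1 there by label in the atherosclerotic pair -0.034 and by diet in the tKO pair -0.052, the B cell sum by label in the atherosclerotic pair -0.11 and Cd74 in endothelial cells by diet in flox -0.13. The cause of these moves was not tested. Depth limits H2-Oa and H2-DMb2 in macrophages and monocytes, and all values of the athero-flox library, with 6 intima-type cells and 4 cavity-like cells.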

Other observations

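Against 42.0% to 53.9% of Lyve1+ macrophages, 62.5% to 80% of monocytes lay below 1%, and each library had monocytes on both sides of it. Between those above 1% and those below it, of 1938 genes with at least 100 UMIs, Tmem176b, Aif1, Tmem176a, Rgs1 and Lgmn were more than 2-fold higher in all 4 libraries, and Slpi, Fn1, Pglyrp1, Hopx, Mgst1, Chil3 and Trem1 were lower by as much, with a count of 0 taken as 3 UMIs. The monocytes above 1% numbered 14, 4, 6 and 9. Some of these ratios therefore rest on few UMIs, such as Rgs1 in normo-tKO with 4 above the cut against 3 below it. CPM here count UMIs outside the members. Aif1, a gene of macrophages, stood at 382, 527, 682 and 339 CPM above the cut and at 110, 110, 107 and 56.8 below it. Chil3, a gene of classical monocytes, stood at 297, 219, 127 and 133 CPM above it and at 890, 614, 904 and 518 below it. Slpi, Fn1 and Chil3 are markers of the gates, the cut was set after the values were seen, and no test was made.

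In T and NK cells H2-DMa made, over the summed libraries, 87.9% of the UMIs of H2-DMa and H2-DMb1, and H2-Oa 29.8% of those of H2-Oa and H2-DMa, against 54.8% and 0.0938% in Lyve1+ macrophages. These shares rest on 167 H2-DMa, 23 H2-DMb1 and 71 H2-Oa UMIs in 922 T and NK cells. Their class II sum, 161 to 308 CPM, overlapped with that of smooth muscle cells, 114 to 183, and the source of these UMIs was not tested.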
